A study of Schizosaccharomyces pombe with 12 samples.

Results

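The 8 genes described here encode Set2 and 7 proteins of histone deacetylase complexes built around Clr6 in fission yeast, Schizosaccharomyces pombe. They are set2, alp13, cph1, cph2, pst2, clr6, prw1 and png2, and were found by name among the 7013 genes of the count files. All 8 were present and all 8 passed the filter on low counts, which kept 6602 genes. Their smallest count outside the deletion strain was 3923, so none of them was near the filter on low counts there.

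Set2 is the methyltransferase that marks lysine 36 of histone H3 over transcribed genes, travelling with elongating RNA polymerase II. In budding yeast the mark is bound by Eaf3, the relative of Alp13, and the deacetylase complex brought there removes acetyl groups in the wake of transcription and keeps initiation inside genes low. In fission yeast this form of the deacetylase is Clr6 complex II. Its subunits include Alp13, the PHD finger proteins Cph1 and Cph2, and the Sin3-family scaffold Pst2. Of these, Alp13 is also part of the acetyltransferase complex NuA4. The catalytic subunit Clr6 and the WD repeat protein Prw1 also serve the other Clr6 complexes, and Png2 is an ING-family PHD finger protein found with Clr6. Glycine 34 of H3, changed in the histone mutants of the study, lies close to lysine 36.

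RNA was sequenced from 4 groups with 3 libraries each: cells with wild-type H3 (WT), cells with H3 carrying arginine (G34R) or valine (G34V) in place of glycine 34, and cells with wild-type H3 labelled Set2D, taken to lack set2 and written set2Δ. All grew overnight in the rich medium YES at 25 °C. Libraries were made from 2 µg of total RNA after removal of ribosomal RNA. The labels do not give the strain background, the copy number of the H3 genes, how much of set2 was removed, or whether replicate libraries stem from independent cultures. The p-values therefore measure the spread between these libraries, which may be technical.

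Library totals over genes ran from 65797517 to 228726069. Reads outside annotated genes averaged 2.02% in WT, 2.42% for G34R, 2.38% for G34V and 3.26% for set2Δ. Every count in the file of set2Δ replicate 3 was even, against 48.4 to 50.6% of the nonzero counts in the other 11 libraries. Results for the 8 genes that changed call when that file was halved or left out are named below. Marker genes of both mating types were counted in every library, with none of the 9 at 0. The 5 M-cell genes summed to 339.8 to 383 CPM in WT libraries, 505 to 541 for G34R, 483 to 500.3 for G34V and 399 to 399.8 for set2Δ, and the 4 P-cell genes to 89.2 to 93.0, 99.3 to 103, 97.2 to 103 and 113 to 119 CPM. The sums hide opposite changes in set2Δ, where 3 M-cell genes rose and mfm1 fell (−1.01, SE 0.087), and 2 P-cell genes rose and map1 fell (−0.18, SE 0.047). The part of these differences in the results below was not tested.

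Values below are CPM, that is counts relative to the library total after TMM scaling. Each log2 fold change is given with its standard error (SE). The test was edgeR's quasi-likelihood F-test, the adjustment was that of Benjamini and Hochberg across the 6602 genes, and a gene was called at an adjusted p under 0.05. The 3 comparisons with WT share the same WT libraries. CPM is not corrected for gene length, so levels are compared between groups and not between genes.

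The deleted gene was examined first. The 3 WT libraries had 133, 129 and 122 CPM of set2, the G34R libraries 109, 109 and 112, the G34V libraries 126, 129 and 135, and the set2Δ libraries 4.38, 3.70 and 3.69. The G34R libraries lay wholly below WT and G34V, which overlapped each other, and set2Δ lay far below all of them. The counts left in set2Δ were 373, 356 and 706, which is 3.07% of the WT level in mean CPM. In set2Δ the log2 fold change was −5.04 (SE 0.052, adjusted p = 2.2e-18 by edgeR).

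The transcript of set2 was also lower in one of the histone mutants. In G34R it was at 85.9% of WT (log2 fold change −0.22, SE 0.037, adjusted p = 0.00020 by edgeR). In G34V it was not called, with a 95% confidence interval of −0.06 to 0.10 for the log2 fold change. The direct comparison of G34R with G34V gave −0.24 (SE 0.038, adjusted p = 0.00013 by edgeR), so the difference between the histone mutants passed the test itself. Both calls were kept under all 20 alternative settings, with set2 between −0.25 and −0.19 in G34R against WT.

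**Figure D1:**
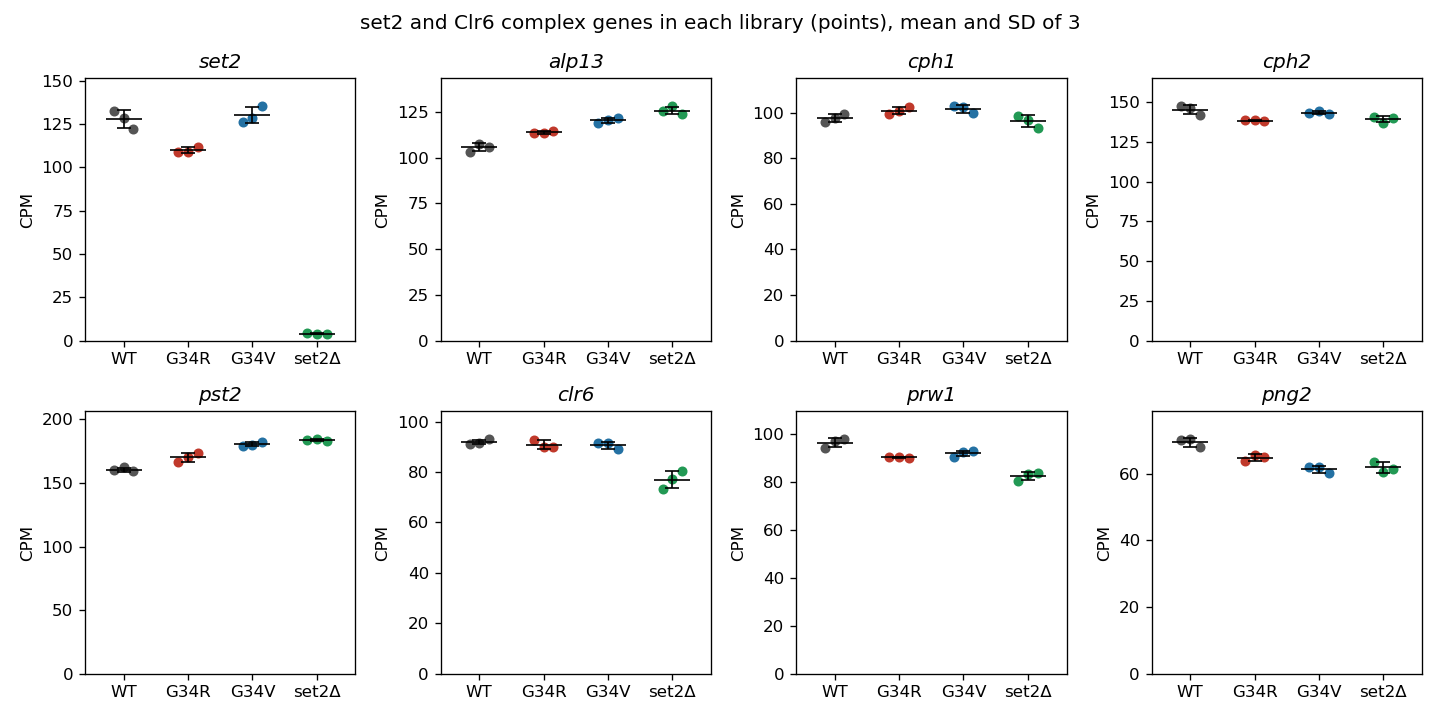
CPM of each of the 8 genes (vertical axes, starting at 0) in the 4 groups (horizontal axes). Points are libraries, and the bar and whiskers are the mean and SD of 3. The set2 panel shows G34R near 110 CPM below WT and G34V, and set2Δ near 4 CPM. The alp13 and pst2 panels rise from WT to set2Δ, and the clr6 and prw1 panels are lowest in set2Δ.

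Among the 7 genes of the deacetylase complexes the subunits moved in different directions. The genes for the chromodomain protein Alp13 and the scaffold Pst2 rose in all 3 mutants. Those for Prw1 and Png2 fell in all 3, that for Clr6 fell in set2Δ, and those for Cph1 and Cph2 differed from WT by less than 5% in every mutant. The sizes were small, from −16.1% for clr6 to 19.0% for alp13, both in set2Δ.

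In WT the 3 libraries had 103, 107 and 106 CPM of alp13. The G34R libraries had 113, 114 and 115 CPM, the G34V libraries 119, 120.5 and 122, and the set2Δ libraries 125, 128 and 124. No library of one group overlapped that of another, and the order was WT, G34R, G34V, set2Δ. Against WT the log2 fold changes were 0.11 (SE 0.022, adjusted p = 0.00062) in G34R, 0.19 (SE 0.022, adjusted p = 4.7e-06) in G34V and 0.25 (SE 0.022, adjusted p = 4.6e-08) in set2Δ by edgeR. Each neighbouring step in this order passed the test as well: G34R against G34V gave −0.08 (SE 0.022, adjusted p = 0.0064) and set2Δ against G34V 0.06 (SE 0.022, adjusted p = 0.021) by edgeR. The last step was lost without G34V replicate 1 (adjusted p = 0.079), without set2Δ replicate 2 (0.091) and when only these groups entered the edgeR fit (0.065).

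The scaffold gene pst2 followed the same order. Its CPM was 159.96, 162 and 159 in WT, and the G34R libraries had 166, 171 and 173, the G34V libraries 179, 179.9 and 182, and the set2Δ libraries 184, 184 and 183. Again no library of one group overlapped that of another. The log2 fold changes against WT were 0.08 (SE 0.021) in G34R, 0.17 (SE 0.021) in G34V and 0.20 (SE 0.021) in set2Δ, with adjusted p = 0.0031, 9.9e-06 and 5.2e-07 by edgeR. G34R was below G34V (−0.08, SE 0.021, adjusted p = 0.0037 by edgeR). The step from G34V to set2Δ was not called (log2 fold change 0.03, 95% confidence interval −0.02 to 0.07). The rises of alp13 and pst2 against WT were called under all 20 alternatives in each mutant.

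The catalytic subunit gene clr6 was at 91.3, 91.5 and 92.9 CPM in WT, with G34R libraries at 92.8, 90.01 and 89.9 and G34V libraries at 91.5, 91.3 and 89.0. In set2Δ it was at 73.4, 77.2 and 80.4 CPM. The histone mutants overlapped WT, and set2Δ lay below all the other libraries. The fall in set2Δ was −0.25 against WT (SE 0.029, adjusted p = 1.1e-06 by edgeR), and −0.24 and −0.23 against G34R and G34V (SE 0.029 for both, adjusted p = 2.5e-06 and 4.6e-06 by edgeR). In G34R and G34V the 95% confidence intervals against WT were −0.08 to 0.04 in both cases. The SD of clr6 in set2Δ, 3.50 CPM, was the largest of the 4 groups.

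Its partner gene prw1 was at 94.3, 97.1 and 97.8 CPM in WT and at 80.6, 83.6 and 83.7 in set2Δ. The G34R libraries held 90.6, 90.4 and 89.97 CPM and the G34V libraries 90.7, 92.5 and 92.8, between the other groups and overlapping neither. The fall was −0.22 in set2Δ (SE 0.023, adjusted p = 3.3e-07), −0.09 in G34R (SE 0.022, adjusted p = 0.0024) and −0.07 in G34V (SE 0.023, adjusted p = 0.020) by edgeR. The histone mutants were not told apart (−0.03, 95% confidence interval −0.07 to 0.02), and set2Δ was below each of them by 0.13 or 0.15 on the log2 scale (adjusted p = 0.00013 and 3.1e-05 by edgeR). The call in G34V was lost without WT replicate 2 (adjusted p = 0.064), WT replicate 3 (0.070) or G34V replicate 1 (0.079), with only the compared groups in the fit (0.057) and with upper quartile scaling (log2 fold change −0.04, adjusted p = 0.20), all by edgeR.

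The gene for the ING-family protein Png2 was at 70.0, 70.3 and 67.9 CPM in WT. The G34R libraries held 63.7, 65.7 and 65.1 CPM, those of G34V 62.1, 61.9 and 60.2, and those of set2Δ 63.6, 60.5 and 61.5. All mutant libraries lay below WT, and set2Δ overlapped G34V. Against WT the fall was −0.10 in G34R (SE 0.025, adjusted p = 0.0044), −0.18 in G34V (SE 0.026, adjusted p = 5.2e-05) and −0.17 in set2Δ (SE 0.026, adjusted p = 3.0e-05) by edgeR. G34R was above G34V (0.08, SE 0.026, adjusted p = 0.021 by edgeR), a call lost without G34R replicate 2 (adjusted p = 0.082), G34R replicate 3 (0.057) or G34V replicate 3 (0.079). Set2Δ was below G34R (−0.07, adjusted p = 0.027 by edgeR), a call lost without G34R replicate 2 or 3 (0.098 and 0.070) or set2Δ replicate 2 or 3 (0.11 and 0.073) and with upper quartile scaling (0.16).

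The genes for Cph1 and Cph2 differed little from WT. For cph1 the libraries ranged from 95.7 to 99.3 CPM in WT, while G34R spanned 99.6 to 103, G34V 99.8 to 103 and set2Δ 93.5 to 98.5. Both histone mutants lay wholly above WT, yet neither difference was called: the log2 fold change was 0.05 (SE 0.024, adjusted p = 0.095) in G34R and 0.06 (SE 0.025, adjusted p = 0.051) in G34V by edgeR. The G34V value sat at the threshold and was called under 13 of 20 alternatives, among them DESeq2 (adjusted p = 0.035). Others were edgeR with set2Δ replicate 3 halved (adjusted p = 0.042) or left out (adjusted p = 0.037). With upper quartile scaling cph1 was called in G34R as well (adjusted p = 0.032 by edgeR). Against G34R and G34V, cph1 in set2Δ was lower by −0.07 and −0.08 (adjusted p = 0.019 and 0.010 by edgeR), and without set2Δ replicate 3 neither call was kept (adjusted p = 0.11 and 0.062). The first was also lost without G34R replicate 3 (adjusted p = 0.080) and with upper quartile scaling (0.13) by edgeR.

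For cph2 the libraries ranged from 142 to 147 CPM in WT, while G34R spanned 138 to 139, G34V 143 to 144 and set2Δ 137 to 141. The G34R and set2Δ libraries lay below WT. The log2 fold change was −0.07 in G34R (SE 0.020, adjusted p = 0.011) and −0.06 in set2Δ (SE 0.021, adjusted p = 0.019), and G34V was not called (95% confidence interval −0.06 to 0.03) by edgeR. In G34R the call did not hold without WT replicate 1 (adjusted p = 0.064). The set2Δ call was lost without WT replicate 1 or 2 (0.13 and 0.061) or set2Δ replicate 2 (0.082), with only the compared groups in the fit (0.099) and with upper quartile scaling (−0.02, adjusted p = 0.52). The G34R libraries lay wholly below those of G34V, but the direct comparison was not called (−0.05, SE 0.021, adjusted p = 0.056 by edgeR). It stayed uncalled under 15 of 20 alternatives and was called by DESeq2 (adjusted p = 0.040).

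**Figure D2:**
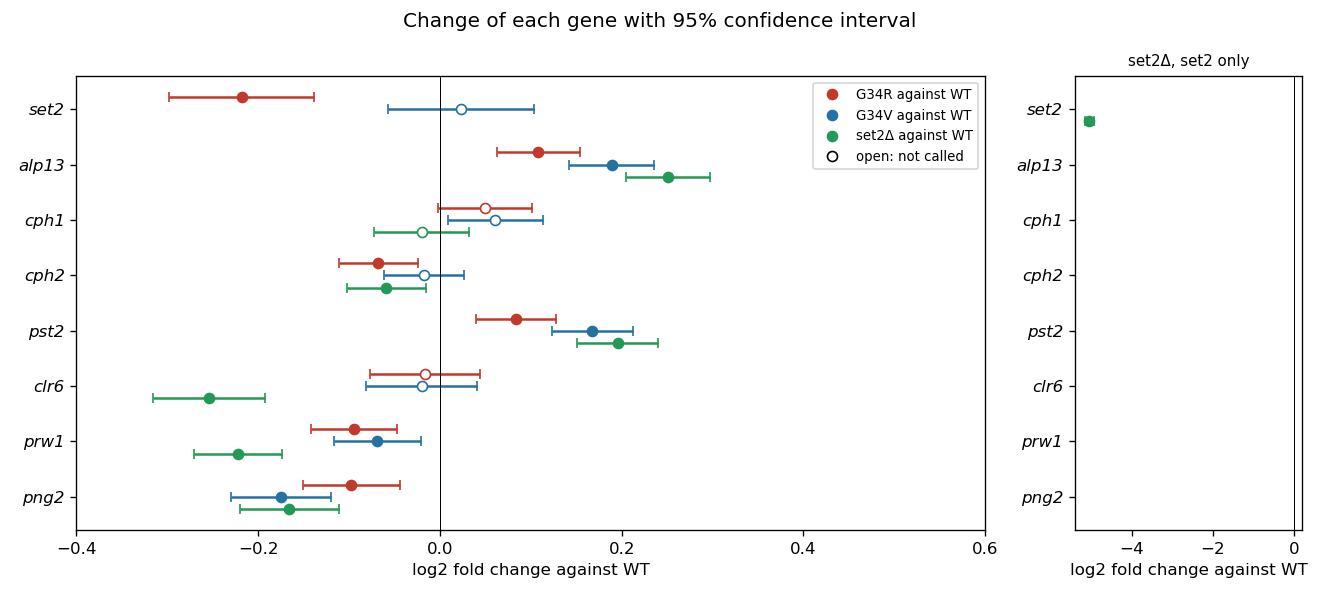
Log2 fold change against WT (horizontal axis) of the 8 genes (vertical axis) in G34R, G34V and set2Δ, with 95% confidence intervals; open points were not called. The value of set2 in set2Δ, −5.04, has its own panel. Intervals of alp13 and pst2 lie above 0 in all 3 mutants, those of prw1 and png2 below 0, and that of clr6 below 0 in set2Δ.

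Counts of called genes must be read against the share of all genes called. In G34R 6 of the 8 genes were called, 2 higher and 4 lower, where 53.4% of all genes were called, 26.8% higher and 26.6% lower. In G34V 4 were called, 2 in each direction, where 50.1% of all genes were, 25.1% higher and 25% lower. In set2Δ 7 were called, 2 higher and 5 lower, set2 itself included, where 70.1% of all genes were, 34.5% higher and 35.6% lower. With most genes called, these counts are no result about the 8 genes. Libraries did not overlap WT for 7, 5 and 7 of the 8 genes, where 62.4%, 57.9% and 71.9% of all genes did not.

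The sizes were ordinary too. Without set2, the median absolute log2 fold change of the 7 other genes was 0.08 in G34R, 0.07 in G34V and 0.20 in set2Δ, beside 0.11, 0.10 and 0.17 over all genes tested. Their signed medians were −0.02, −0.02 and −0.06, beside −0.00, −0.01 and −0.01 over all genes. Between mutants, 4 of the 8 were called in G34R against G34V (background 50.5%), 7 in set2Δ against G34R (69.4%) and 5 in set2Δ against G34V (62.5%). With upper quartile scaling the split of all called genes in G34V against WT moved from 1657 higher and 1649 lower to 2032 and 1165, and that of the 8 genes from 2 and 2 to 3 and 1.

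Ratios of counts within a library do not depend on how libraries are scaled. The ratio of alp13 to clr6 was 1.13, 1.17 and 1.14 in WT, while the G34R libraries gave 1.22, 1.26 and 1.27, the G34V libraries 1.30, 1.32 and 1.37, and the set2Δ libraries 1.71, 1.66 and 1.54. No group overlapped another, and the ratio in set2Δ was 1.42 times that in WT. The ratio of pst2 to clr6 was 1.75 ± 0.030 (SD, n = 3) in WT, against 1.87 ± 0.073 for G34R, 1.99 ± 0.050 for G34V and 2.39 ± 0.12 for set2Δ, again without overlap. The smallest p that an exact permutation test of 3 against 3 libraries can give is 0.1, which these ratios reached in each comparison with WT (two-sided, adjusted p = 0.14 over 54 such tests), so the design could not pass 0.05. Relative to clr6 the PHD finger genes were higher in set2Δ as well, with cph1 at 1.06 ± 0.011 in WT and 1.25 ± 0.089 in set2Δ, and cph2 at 1.58 ± 0.046 and 1.81 ± 0.095 (SD, n = 3), while the ratio of png2 to clr6 overlapped WT. Neither cph1 nor cph2 itself rose in set2Δ, and every ratio to clr6 there carries the fall of clr6 (−0.25).

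Other ratios varied less. The ratio of alp13 to pst2, chosen after the values were seen because both genes rose, was 0.657 ± 0.011 (SD, n = 3) in WT, against 0.669 ± 0.011 for G34R, 0.667 ± 0.0029 for G34V and 0.683 ± 0.0098 for set2Δ. That of prw1 to clr6 was 1.05 ± 0.015 in WT, against 0.994 ± 0.015 for G34R, 1.02 ± 0.026 for G34V and 1.07 ± 0.029 for set2Δ. Small shifts remained: alp13 to pst2 in set2Δ lay wholly above WT, and prw1 to clr6 in G34R wholly below it. As a measure of likeness, the root mean square difference of centred log2 CPM over the 12 libraries was 0.026 between alp13 and pst2, the smallest among the 28 pairs of the 8 genes. The next was 0.050 between clr6 and prw1, the subunits shared with other Clr6 complexes. Yet prw1 was called lower in G34R and G34V and clr6 in neither, and each had 2 nearer genes, at 0.028 or less. After this pair came 0.054 between cph1 and cph2. The last value is larger than the root mean square of either gene's own pattern, 0.040 for cph1 and 0.032 for cph2, and in G34R the changes of these genes had opposite signs. Between alp13 and clr6 it was 0.19, the largest of the pairs without set2. Pairs with set2 ran from 2.05 to 2.22. They include the libraries that lack set2, so they could not rank among the smallest.

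**Figure D3:**
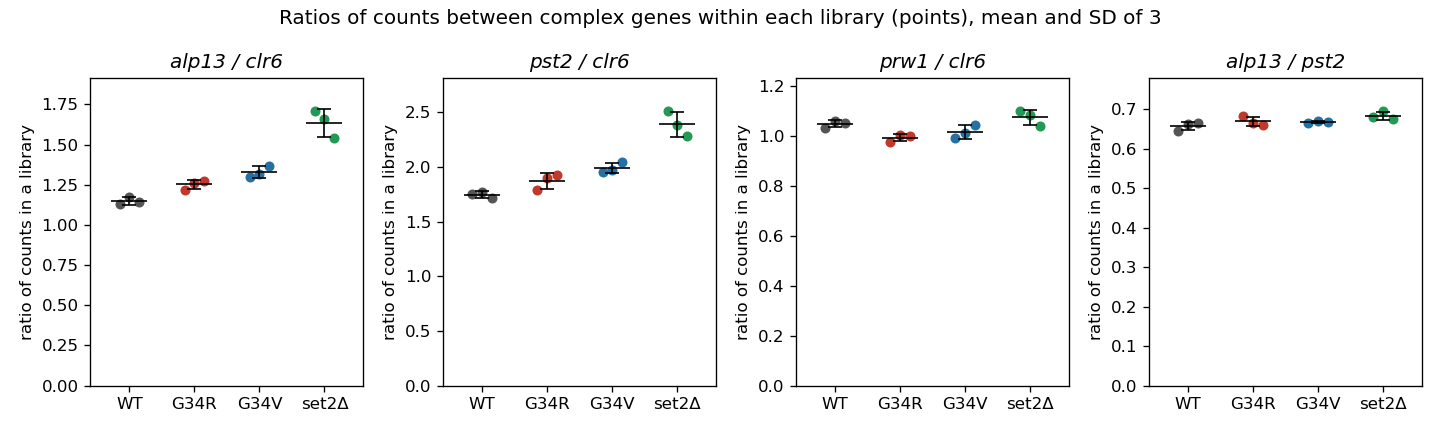
Ratio of counts (vertical axes, starting at 0) between pairs of complex genes in each library, by group (horizontal axes); points are libraries, bars and whiskers the mean and SD of 3. The ratio of alp13 to clr6 rises from 1.15 in WT to 1.63 in set2Δ and that of pst2 to clr6 from 1.75 to 2.39, while alp13 to pst2 stays between 0.645 and 0.694.

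The genes most like each of the 8 were sought among all 6601 others by the same measure. Nearest to set2, over the 9 libraries that carry the gene, were pol5, a ribosomal RNA processing gene (0.018), and srp54, a signal recognition particle gene (0.021). Nearest to alp13 were esf2, which encodes a U3 snoRNP-associated protein (0.024), and then pst2, and nearest to pst2 were SPAC1834.10c (0.025) and then alp13. Each of alp13 and pst2 thus stood among the 2 genes closest to the other in the whole table. Nearest to clr6 were SPAC25B8.10 (0.022) and the leucyl-tRNA ligase gene lrs1 (0.028). Nearest to prw1 were SPBC30B4.06c (0.021) and rec14, which encodes a Ski complex subunit (0.021), and nearest to png2 the TFIIH gene ssl1 (0.019) and mob1 (0.022). Nearest to cph1 were erm1 and the importin gene imp1 (0.024 each), and to cph2 arf1 and bun62 (0.020 and 0.021). These values are descriptions over libraries of 4 groups and carry no test.

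The files also count an antisense RNA named after cph1, the only one of the 8 genes with such a row. It stood at 26.5, 26.8 and 25.8 CPM in WT, while the G34R libraries had 35.5, 39.99 and 37.5, the G34V libraries 43.5, 45.7 and 49.9, and the set2Δ libraries 42.6, 45.8 and 45.7. Every mutant library lay above WT, and G34V overlapped set2Δ. Against WT cph1-antisense-1 rose by 0.52 in G34R (SE 0.050, adjusted p = 1.2e-06), 0.81 in G34V (SE 0.051, adjusted p = 1.6e-08) and 0.76 in set2Δ (SE 0.050, adjusted p = 4.2e-09) by edgeR. The ratio of antisense to sense counts was 0.270 ± 0.0095 (SD, n = 3) in WT, against 0.373 ± 0.021 for G34R, 0.456 ± 0.039 for G34V and 0.465 ± 0.029 for set2Δ. The libraries are stranded per the labels, and of 25 noncoding RNAs lying wholly within an oppositely oriented coding gene 18 had more than 3 counts in every library. Reads assigned to the wrong strand can give such counts as well, and their share was not tested.

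Around set2 itself, the annotated gene that overlaps it on the other strand is ino80, which encodes the ATPase of a chromatin remodeller, and on the promoter side lie the noncoding RNA SPNCRNA.268 and then spd1, an inhibitor of ribonucleotide reductase, both on the other strand. SPNCRNA.268 was at 1.29, 1.17 and 1.41 CPM in WT and at 7.33, 7.18 and 6.62 in set2Δ, a log2 fold change of 2.43 (SE 0.080, adjusted p = 4.4e-13 by edgeR). In G34R it was at 1.71 CPM on average (0.41, SE 0.090, adjusted p = 0.0014 by edgeR), and in G34V at 1.54 (0.24, SE 0.10, adjusted p = 0.060 by edgeR), a value that was called without WT replicate 3 (adjusted p = 0.029), without G34R replicate 2 (0.046) and with upper quartile scaling (0.039).

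**Figure D4:**
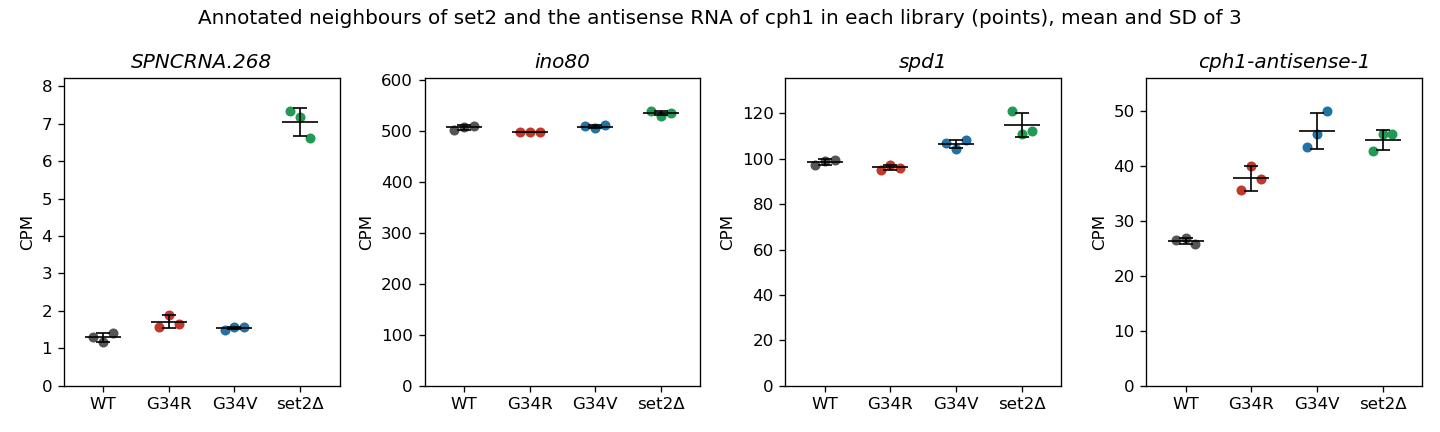
CPM (vertical axes, starting at 0) of SPNCRNA.268, ino80 and spd1, which neighbour set2, and of cph1-antisense-1, by group (horizontal axes); points are libraries, bars and whiskers the mean and SD of 3. SPNCRNA.268 is near 1.3 CPM in WT and 7.0 in set2Δ, ino80 moves little, and cph1-antisense-1 is above WT in every mutant.

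The other neighbours of set2 moved less in set2Δ. The transcript of spd1 rose from 98.6 ± 1.29 to 115 ± 5.37 CPM (SD, n = 3; 0.22, SE 0.029, adjusted p = 5.7e-06 by edgeR) and that of ino80 from 507 ± 4.47 to 536 ± 4.43 CPM (0.08, SE 0.023, adjusted p = 0.0075 by edgeR). Beyond ino80, SPNCRNA.267 was counted at 0.138 CPM or less in every library and was not called. Whether the deletion construct has a part in these neighbours' values was not tested.

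Genes of related machinery were counted from lists chosen with earlier results of these data known. Of 10 other subunits found with Clr6, 5 rose and 3 fell in set2Δ, 1 rose and 3 fell in G34R, and 2 fell in G34V, where 70.1%, 53.4% and 50.1% of all genes were called. In set2Δ nts1, a subunit of a further Clr6 complex, rose from 68.9 ± 2.18 to 86.4 ± 2.33 CPM (SD, n = 3; 0.33, SE 0.028, adjusted p = 4.0e-08 by edgeR). In the same strain dep1, of complex I, fell from 39.6 ± 1.52 to 29.1 ± 1.45 CPM (−0.45, SE 0.040, adjusted p = 8.1e-08 by edgeR), and it was also lower in G34R (−0.17) and G34V (−0.18). The complex I scaffold gene pst1 rose by 0.10 in set2Δ (SE 0.023, adjusted p = 0.00068 by edgeR) and was not called in G34R or G34V. The count of 3 lower in set2Δ was 1 without WT replicate 2 or set2Δ replicate 3. It was also 1 with only the compared groups in the fit or with upper quartile scaling. The count of 2 lower in G34V was 1 without WT replicate 1 or with upper quartile scaling. In G34V 1 gene rose without WT replicate 2 or with upper quartile scaling.

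Of 5 other deacetylase genes in the files, none rose in any mutant, and 4 fell in set2Δ, 3 in G34R and 1 in G34V, where 35.6%, 26.6% and 25% of all genes fell. In G34R 1 of the 3 was sir2 (−0.07), whose call was kept under only 10 of 20 alternatives. It was lost by DESeq2 (adjusted p = 0.051) and, by edgeR, without G34R replicate 3 (0.19). In set2Δ hst2 (−0.08, SE 0.032, adjusted p = 0.033 by edgeR) was lost without any one WT library and without set2Δ replicate 2 or 3. Its call was also lost with only the compared groups in the fit (adjusted p = 0.062) or with upper quartile scaling (0.31), both by edgeR. The sirtuin gene hst4 was lower in all 3, with 108 ± 1.42 CPM in WT against 95.2 ± 2.99 for G34R, 97.3 ± 0.919 for G34V and 96.8 ± 0.832 for set2Δ (SD, n = 3; adjusted p = 9.8e-06, 7.6e-05 and 1.9e-05 by edgeR). The single call in G34V became 2 without WT replicate 3 and 3 without G34V replicate 3. Of 3 other histone lysine methyltransferase genes listed, 1 fell in each mutant and none rose. In set2Δ, G34R and G34V 70.1%, 53.4% and 50.1% of all genes were called. The gene set1 fell in set2Δ (−0.11, SE 0.023, adjusted p = 0.00037) and set9 in G34R (−0.14, SE 0.028, adjusted p = 0.00051), while clr4, which encodes the H3K9 enzyme, was called in no mutant by edgeR. The call of set1 in G34V (−0.06, adjusted p = 0.039 by edgeR) was lost without any one G34R or G34V library and without WT replicate 2 or 3. It was also lost by edgeR with RLE scaling (adjusted p = 0.063), only the compared groups (0.12) or upper quartile scaling (0.30). The gene clr4 was called in set2Δ without WT replicate 1. Of 7 demethylase and JmjC genes, 2 rose and 3 fell in set2Δ, 1 rose in G34R and 2 fell in G34V, which is 5, 1 and 2 called where 70.1%, 53.4% and 50.1% of all genes were. The heterochromatin regulator gene epe1 was lower in set2Δ (−0.17, SE 0.020) and G34V (−0.16, SE 0.020) and not called in G34R (0.04, adjusted p = 0.075 by edgeR), where it was called as higher without WT replicate 2 and by DESeq2, making the count there 2. In G34V the 2 that fell were 1 without WT replicate 2 or G34V replicate 2 or 3. They were also 1 with only the compared groups in the fit or with upper quartile scaling. In G34V 1 gene rose without G34V replicate 3, with upper quartile or RLE scaling, by DESeq2 or by limma-voom.

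Alp13 also belongs to the acetyltransferase complex NuA4. Of 11 other NuA4 genes 7 rose and 2 fell in set2Δ, 4 rose and 2 fell in G34R, and 4 rose and 1 fell in G34V. These are 9, 6 and 5 of 11 called, beside the same 70.1%, 53.4% and 50.1% of all genes. The scaffold gene tra2 rose from 709 ± 5.43 CPM in WT to 795 ± 5.53 in G34V (0.17, SE 0.026) and 883 ± 15.1 in set2Δ (SD, n = 3; 0.32, SE 0.026, adjusted p = 3.0e-08 by edgeR), and mst1, the catalytic subunit gene, rose by 0.15 in set2Δ (SE 0.026, adjusted p = 0.00011 by edgeR). The 4 that rose in G34R were 1 without WT replicate 1 or G34R replicate 2 or 3 and 2 without WT replicate 2 or G34R replicate 1, so this count rests on single libraries. The 2 that fell in G34R were 1 without WT replicate 2, and the 1 that fell in G34V were 2 without set2Δ replicate 3. Of the 2 that fell in set2Δ only 1 was kept without any one WT library, G34R replicate 1, G34V replicate 3 or set2Δ replicate 2, or when set2Δ replicate 3 was halved. The same held with no filter on low counts, with only the compared groups in the fit or with upper quartile scaling. Of the 7 genes of the Mst2 acetyltransferase complex, whose subunit Pdp3 binds methylated lysine 36, 5 rose and 2 fell in set2Δ, 2 rose in G34R, and 1 rose and 1 fell in G34V. All 7 were thus called in set2Δ and 2 in each histone mutant, beside 70.1%, 53.4% and 50.1% of all genes. The gene eaf6 stands in both the NuA4 and the Mst2 list and is counted in each, in set2Δ among those that rose (0.16). The gene pdp3 was higher in set2Δ (0.11, SE 0.030, adjusted p = 0.0051) and lower in G34V (−0.08, SE 0.030, adjusted p = 0.032) by edgeR. The G34V call was lost without WT replicate 2 or G34V replicate 1 or 2. It was also lost with only the compared groups in the fit (adjusted p = 0.061) or with upper quartile scaling (0.19), both by edgeR.

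Set2 acts with polymerase II phosphorylated on its tail, and 6 genes for its largest subunit, the tail kinases and the kinases' partner subunits were listed. Of these 3 rose and 1 fell in set2Δ, 1 rose and 1 fell in G34R, and 2 rose in G34V. The 4, 2 and 2 called stand beside 70.1%, 53.4% and 50.1% of all genes. The largest change was that of lsk1, which encodes a kinase of the polymerase tail. It was at 118, 116 and 119 CPM in WT, while the G34R libraries had 120.5, 119 and 120.4, the G34V libraries 134, 133 and 135, and the set2Δ libraries 172, 169.6 and 169. The log2 fold change of lsk1 was 0.53 in set2Δ (SE 0.019, adjusted p = 1.2e-12) and 0.19 in G34V (SE 0.019, adjusted p = 1.3e-06), and in G34R it was 0.03 (SE 0.019, adjusted p = 0.22) by edgeR. The largest-subunit gene rpb1 was called in no mutant. The single gene that fell in set2Δ was lsc1 (−0.08, SE 0.032, adjusted p = 0.039 by edgeR), and under 11 of 20 alternatives no gene of the list fell there, among them DESeq2, halving set2Δ replicate 3 and leaving out WT replicate 2 or 3, G34R replicate 1, G34V replicate 3 or set2Δ replicate 1 or 3. The call of lsg1 was lost without WT replicate 1 in both histone mutants, without G34R replicate 3 in G34R and without G34V replicate 3 in G34V, and 1 gene fell in G34V without set2Δ replicate 1 or 3.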

How the data were processed

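Integer read counts per gene were deposited as 1 file for each of 12 libraries. Per the submitters' processing notes, CASAVA 1.7, cutadapt, STAR, SAMtools and HTSeq were used with build ASM294v2; their other versions and settings were not stated in these sources. Each file ended in 5 summary lines, kept out of library sizes and tests. Genes were kept with filterByExpr (6602 of 7013), scaled with TMM factors between 0.972 and 1.04, and fitted in edgeR 4.0.16 under R 4.3.3 (quasi-likelihood F-test, robust dispersions, 1 model with 4 groups and 8 residual degrees of freedom). A limit of 3 counts corresponds to 0.0134 to 0.0460 CPM, for counting error only. The common coefficient of variation was 3.32%. The code was tested on simulated data. Gene names, strands and neighbours came from RefSeq ASM294v3, a later build, so no coordinates are given. The genes and lists were chosen with earlier results of these data known. Genes named were the 8, their antisense rows, the neighbours of set2, the 2 nearest in pattern and up to 3 of each list by adjusted p, with others named for their role after their values were seen. Of 6 deacetylase names listed, phd1 had no row of its own and may be another name of hos2.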

Additional observations from a re-analysis of the deposited data

How the results depend on the processing

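The 20 alternatives were upper quartile and RLE scaling, no filter on low counts, a filter of 1 CPM in 6 libraries, DESeq2 1.42.0, limma-voom (limma 3.58.1), the compared groups alone, set2Δ replicate 3 halved, and each of 12 libraries left out in turn. They were also applied to the neighbours, the antisense RNA and the other lists, which was decided after the data were examined. For the other lists not every alternative that moved a call or count is named above. No paired analysis was possible because no replicate number ties samples of different groups. Of 960 values of the 8 genes over 6 comparisons, 915 kept their direction or stayed uncalled on the same side of the threshold, 26 lost and 19 gained a call, and none of the called values reversed. Counts of called genes ranged from 2977 to 3647 in G34R, 2840 to 3399 in G34V and 4374 to 4674 in set2Δ against WT. Among the 8 genes 5 to 7, 3 to 5 and 6 to 7 were called. Several calls of cph1 and cph2 lay near the threshold. How much of the spread between their libraries was counting error was not tested.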
